A study of Mus musculus with 2 samples.

Results

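Tight junctions seal the space between epithelial cells near the apical surface. Claudins form the seal and decide which ions pass, occludin and its relatives are further membrane proteins of the strand, junctional adhesion molecules lie beside it, and the zonula occludens (ZO) proteins tie the strand to actin on the inner side. In the mammary gland the junctions of the milk-secreting alveoli are leaky in pregnancy, close around the onset of lactation and open again when milk stasis leads to involution, the regression of the gland after weaning. The transcripts described here are those of 9 genes of this system, 5 claudins (*Cldn1*, *Cldn3*, *Cldn4*, *Cldn7* and *Cldn8*), occludin (*Ocln*), ZO-1 (*Tjp1*), ZO-3 (*Tjp3*) and junctional adhesion molecule A (*F11r*). They were chosen by symbol, without regard to a measured value in the rule itself, and all 9 were found among the 25810 genes with a symbol in the files.

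The study compared mammary epithelial cells (MECs) of WT and *Igfbp7-/-* mice on lactation day 3, with 1 poly(A) RNA library per genotype. *Igfbp7* encodes a secreted IGF binding protein, and the targeted allele was made in embryonic stem cells from a vector with loxP sites around exon 1, after which lines without *Igfbp7* transcripts were taken to make a germline knockout. The labels give the genetic background of both libraries as C57BL/6, whereas the methods say that the knockout was made on CD1, and neither gives the age or the number of animals behind a library. The cells came from inguinal glands of lactating females and were depleted with magnetic beads of cells carrying CD45, Ter119 and CD31, for which the labels write CD35. With 1 library per genotype no difference has a replicate check, so no test between genotypes was made. The interval beside each ratio is a 95% Clopper-Pearson interval on read pairs that covers counting error only.

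Each library was scaled by the authors to a total of 34327854 reads for WT and 35016847 reads for *Igfbp7-/-*, of which 82.3% and 72.3% fell on genes with a symbol. The targeted gene had 5224 reads in WT and 37 in *Igfbp7-/-*, in the direction of the labels. A gene is called higher or lower here at a ratio of at least 1.5 times. Of all genes that reached 1 RPM (reads per 1000000 of the library) in WT or *Igfbp7-/-*, 21.4% were higher and 23.0% lower in *Igfbp7-/-*. Of 6 luminal epithelial markers, 3 were higher in *Igfbp7-/-* and none lower, and their summed level was 1861 RPM in WT and 3717 RPM in *Igfbp7-/-*. Of the lists of other cell types, 7 of 7 basal and myoepithelial markers (3249 and 1030 RPM), 5 of 6 endothelial markers (1129 and 375 RPM), 7 of 7 leukocyte markers (159 and 54.7 RPM), 3 of 5 fibroblast markers (4390 and 2631 RPM) and 3 of the 4 adipocyte markers that reached 1 RPM (562 and 192 RPM over all 5) were lower in *Igfbp7-/-*. The remaining endothelial and fibroblast markers were within 1.5 times. The remaining adipocyte marker that reached 1 RPM, *Lep*, was higher (8.04 and 16.8 RPM, log2 ratio 1.06, 0.77 to 1.37). Most of the adipocyte sum came from *Fabp4* (543 and 173 RPM). Milk genes, which are made by luminal secretory cells, were lower for 4 of 6 (87603 and 32513 RPM) and within 1.5 times for *Btn1a1* and *Xdh*, so that luminal genes differed in both directions. Of 3 erythroid markers that reached 1 RPM, none differed by 1.5 times (889 and 997 RPM in sum). All markers of the first 7 lists named here had reads in both libraries, those of the depleted endothelial and leukocyte cells included. A change in the share of luminal cells and a change in RNA per luminal cell cannot be told apart in these libraries.

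The summed level of claudin transcripts per length was 304 RPKM (RPM per kilobase of gene length) in WT and 649 RPKM in *Igfbp7-/-*, 2.13 times as high. *Cldn4* alone held 52.9% and 60.6% of these sums, and single claudins differed in both directions. In RPM, the sum of the 9 genes was 2.05 times as high, and that of the luminal markers 1.998 times. *Cldn4*, which encodes a barrier-forming claudin of many ducts and glands, was the most abundant of the 9 genes in both libraries. It was listed at 161 RPKM in WT and 393 RPKM in *Igfbp7-/-*, rank 230 of 18793 and rank 82 of 18684 genes with reads and a length. Its reads numbered 10088 and 25151, or 294 and 718 RPM, a log2 ratio of 1.29 (interval 1.24 to 1.34). The *Igfbp7-/-* level was thus 2.44 times that of WT, on the scale used for all ratios here, RPM with 0.1 RPM added to both values.

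*Cldn3*, another barrier-forming claudin of simple epithelia, had the largest ratio of the 9 genes. It was covered by 742 reads in WT (21.6 RPM) and by 3410 in *Igfbp7-/-* (97.4 RPM), which is a log2 ratio of 2.17 (2.01 to 2.34) or 4.49-fold, and its interval lay above those of the other 8 genes. *Cldn1*, whose product is needed for the water barrier of the skin, was covered by 3459 reads (101 RPM) against 10438 (298 RPM), with a log2 ratio of 1.56 (1.49 to 1.64). *Cldn1*, *Cldn3* and *Cldn4* also stand on the list of involution genes that the study set against these libraries.

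*Cldn7*, which binds the epithelial adhesion molecule Epcam and lies along the lateral membrane as well as at the junction, was covered by 1520 reads in WT (44.3 RPM) and by 2529 in *Igfbp7-/-* (72.2 RPM). Its log2 ratio of 0.70 (0.57 to 0.84) was above 1.5 times, the fold used here to call a gene higher or lower, but the interval reached below that fold. Relative to the summed luminal markers its log2 ratio was -0.29, while against single markers it was above 1 times for 3 of the 6 (*Epcam*, *Cdh1* and *Cd24a*) and below for the 3 keratins. *Cldn8*, a claudin known from the collecting duct of the kidney, was the exception among the 5. It was covered by 690 reads in WT (20.1 RPM) and by 440 in *Igfbp7-/-* (12.6 RPM), which is a log2 ratio of -0.67 (-0.93 to -0.43), 1.59-fold lower, and its interval too held values within 1.5 times.

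Of the membrane proteins beside the claudins, occludin transcripts were higher in *Igfbp7-/-* and those of junctional adhesion molecule A were not. *Ocln* was covered by 639 reads in WT (18.6 RPM) and by 1924 in *Igfbp7-/-* (54.9 RPM), which is a log2 ratio of 1.56 (1.38 to 1.75). *F11r* had 3618 and 3347 reads, 105 and 95.6 RPM, a log2 ratio of -0.14 (-0.24 to -0.04). Per length, *F11r* was 7.28 times as abundant as *Ocln* in WT and 2.24 times in *Igfbp7-/-*.

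The ZO scaffolds among the 9 genes differed from each other. *Tjp3* was covered by 160 reads in WT (4.66 RPM) and by 476 in *Igfbp7-/-* (13.6 RPM), which is a log2 ratio of 1.52 (1.17 to 1.93). *Tjp1* had 5467 and 7333 reads, 159 and 209 RPM, a log2 ratio of 0.39 (0.32 to 0.47), which lay wholly within 1.5 times. Per length *Tjp1* was listed at 22.6 RPKM in WT and 29.7 RPKM in *Igfbp7-/-*, and *Tjp3* at 1.53 and 4.48 RPKM.

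**Figure D1:**
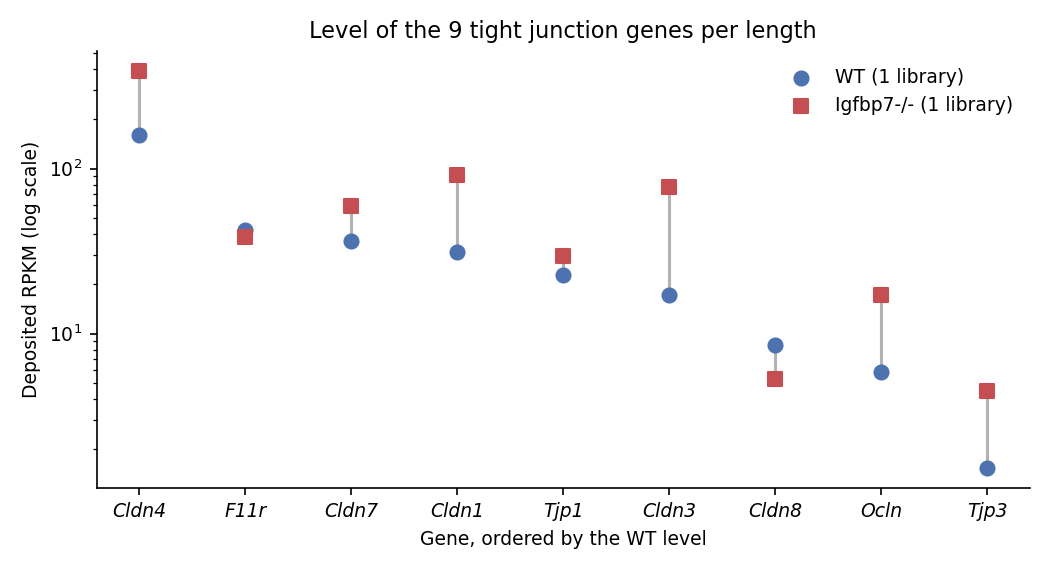
Deposited RPKM on a log scale for the 9 genes in the WT library (circles) and the *Igfbp7-/-* library (squares), 1 library per genotype, ordered by the WT level. *Cldn4* was highest and *Tjp3* lowest in both libraries, and *Cldn8* and *F11r* were the only genes with the square below the circle.

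Of the 9 genes, 6 were higher in *Igfbp7-/-* by at least 1.5 times, 1 was lower and 2 were within that fold. Of the 14026 genes that reached 1 RPM in WT or in *Igfbp7-/-*, 21.4% were higher, 23.0% lower and so 44.5% either by the same rule. All 9 genes passed that minimum. Their median log2 ratio was 1.29, and that of all genes tested was 0.035. Relative to the summed luminal markers 1 of the 9 was higher and 3 were lower, against 3.03% higher and 71.4% lower over all genes under that scaling. *Cldn1*, *Ocln* and *Tjp3*, with ratios of 2.96, 2.94 and 2.88, could not be ordered, since each interval held the ratios of the other two, and the interval of *Cldn4* overlapped that of *Tjp3* but not those of *Cldn1* and *Ocln*. *Cldn7* and *Cldn8* were the genes just past 1.5 times, with *Tjp1* the nearest inside it at 1.31-fold.

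**Figure D2:**
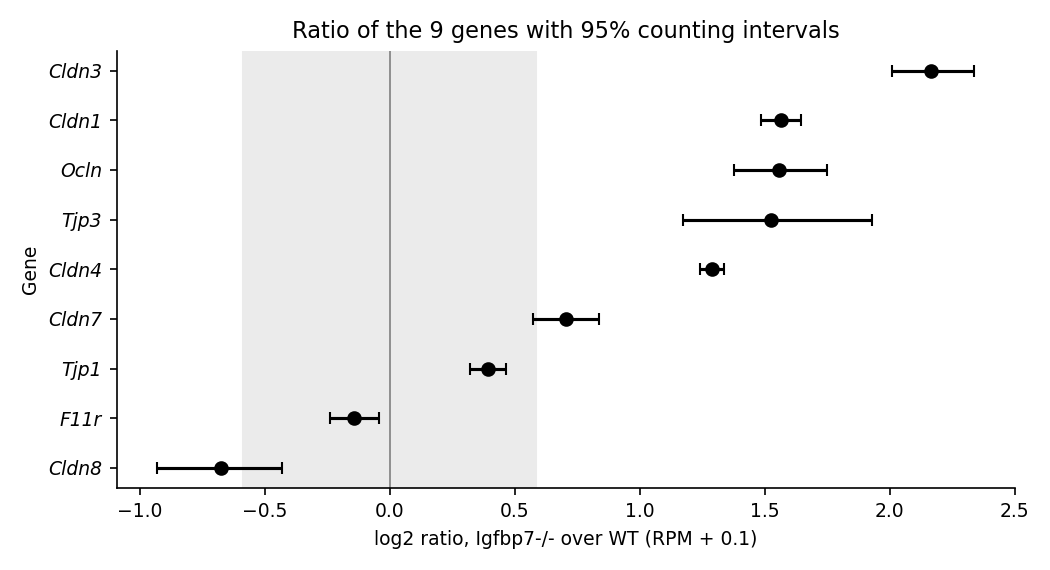
log2 ratio of *Igfbp7-/-* to WT for the 9 genes, from RPM with 0.1 RPM added (points), with 95% Clopper-Pearson intervals for counting error (bars). The grey band marks ratios within 1.5 times. *Cldn3* stands apart at 2.17, the intervals of *Cldn7* and *Cldn8* cross the edge of the band, and *Tjp1* and *F11r* lie inside it.

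The order of the claudins by level changed below *Cldn4*. In WT the order per length was *Cldn4*, *Cldn7* (36.2 RPKM), *Cldn5* (33.7 RPKM), *Cldn1* (31.1 RPKM), *Cldn3* (17.2 RPKM) and *Cldn8* (8.49 RPKM). In *Igfbp7-/-* it was *Cldn4*, *Cldn1* (92.1 RPKM), *Cldn3* (77.3 RPKM), *Cldn7* (59.1 RPKM), *Cldn12* (8.97 RPKM), *Cldn5* (7.03 RPKM) and *Cldn8* (5.31 RPKM). *Cldn7* was 2.11 times as abundant per length as *Cldn3* in WT, while *Cldn3* was 1.31 times as abundant as *Cldn7* in *Igfbp7-/-*. The spread between animals behind such orders is not known.

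The 5 claudins among the 9 genes made up 83.4% of the summed claudin RPKM in WT and 96.6% in *Igfbp7-/-*. *Cldn4* alone took 52.9% and 60.6%, *Cldn3* 5.64% and 11.9%, and *Cldn8* 2.79% and 0.818%. The rest in WT was mostly *Cldn5*, the main claudin of endothelial cells, and *Cldn15*, a claudin of the intestine that lets cations pass. Together they took 13.7% of the claudin RPKM in WT and 1.38% in *Igfbp7-/-*. *Cldn5* was at 47.6 RPM in WT and 9.94 RPM in *Igfbp7-/-* (log2 ratio -2.25, interval -2.50 to -2.02), and *Cldn15* at 14.6 and 3.54 RPM (-2.01, -2.47 to -1.63). The 6 endothelial markers were 3.01-fold lower in sum in the same library. The part of endothelial cells in the *Cldn5* values was not tested.

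**Figure D3:**
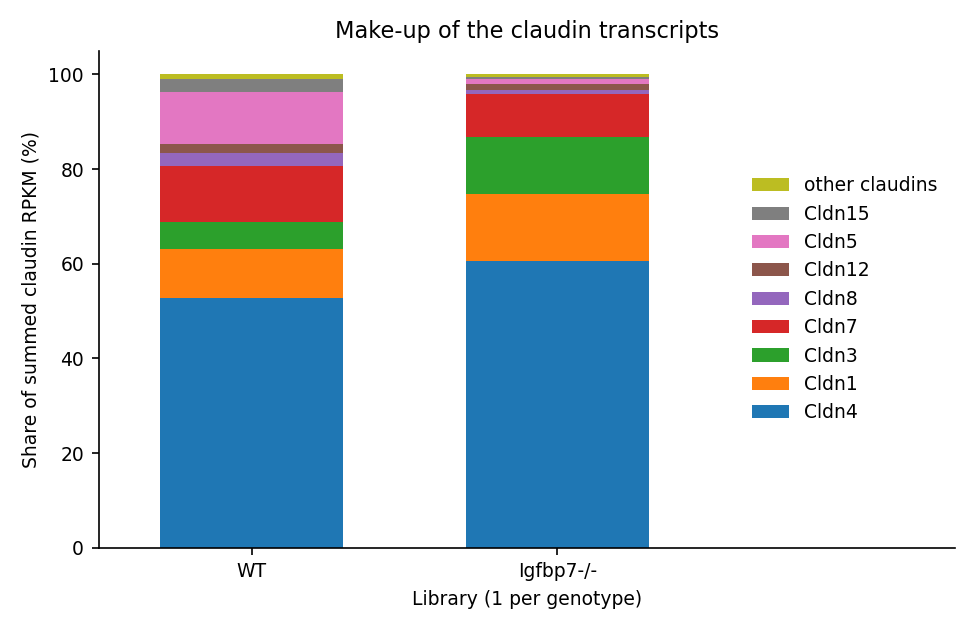
Share of each claudin in the summed deposited RPKM of the 23 claudins listed, in percent, for the WT and the *Igfbp7-/-* library (1 per genotype). *Cldn4* takes 52.9% and 60.6%, and *Cldn5* takes 11.1% and 1.08%.

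Of the 18 other claudins in the files, 6 reached 1 RPM in at least one library. Of these 6, 1 was higher, 3 lower and 2 within 1.5 times, with a median log2 ratio of -0.54. Over all genes tested 21.4% were higher and 23.0% lower. The summed level of the 18 was 88.7 RPM in WT and 52.9 RPM in *Igfbp7-/-*, 1.68-fold lower. Besides *Cldn5* and *Cldn15*, *Cldn19* was listed as lower (1.22 and 0.628 RPM, 42 and 22 reads), with an interval that reached from -2.16 to 0.16. *Cldn12*, a claudin without the C-terminal motif by which most claudins bind ZO proteins, was higher (21.5 and 34.0 RPM, log2 ratio 0.66, 0.48 to 0.86). *Cldn10* (1.57 and 2.11 RPM) and *Cldn23* (1.37 and 1.17 RPM) were within 1.5 times. The other 12 had between 0 and 19 reads in either library, and at this depth 3 reads, taken as the limit of detection, came to 0.0874 RPM (WT) and 0.0857 RPM (*Igfbp7-/-*).

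On the mouse assembly NCBIM37 (mm9, the build named in the labels) *Cldn3* and *Cldn4* are neighbours on chromosome 5. *Cldn4* lies on the minus strand at 135420996 to 135422804 and *Cldn3* on the plus strand at 135462084 to 135463342, each annotated by GENCODE M1 as a single exon, with 39279 bases and no annotated gene between them. *Cldn13*, on the other side of *Cldn4* at 135390119 to 135391396, had 0 reads in WT and 6 in *Igfbp7-/-*. *Cldn1* lies on chromosome 16 at 26356728 to 26371927 on the minus strand, 91293 bases from *Cldn16*, which had no reads in either library. *Cldn8* lies on the same chromosome at 88561073 to 88563428 on the minus strand, 53849 bases from *Cldn17*, which had 2 and 4 reads. The nearest claudin of each of these 2 members was thus near or below the limit of detection in both libraries.

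The other members lie apart from one another. *Cldn7* is on chromosome 11 (69778281 to 69781387, plus strand), *F11r* on chromosome 1 (173367666 to 173394734, plus strand), *Ocln* on chromosome 13 (101266462 to 101322673, minus strand), *Tjp1* on chromosome 7 (72441051 to 72516125, minus strand) and *Tjp3* on chromosome 10 (80735952 to 80754012, minus strand). The exons of *Cldn3* share 40 bases with *Wbscr25* (11 and 39 reads) and those of *Tjp3* share 40 bases with *Apba3* (183 and 508 reads), both on the opposite strand. Whether the counting used the strand is not given in the sources used here, so reads in the shared bases cannot be told apart.

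Promoter sequences of RefSeq, 250 bases before to 50 after the start site, were found for 8 of the 9 genes (11 start sites), and none for *Cldn8*. The table is of build GRCm38.p6, and all 11 sequences were found letter for letter in NCBIM37, whose positions are given. They were searched on both strands for CAGGTG, the E-box bound by the Snail and Zeb repressors of epithelial genes, which occurred in 20.2% of all 32851 promoters in the table and in 6 of the 8 genes (8 of 11 start sites). These were *Cldn3*, *Cldn4*, *Cldn7*, *Ocln* and *Tjp3*, all higher in *Igfbp7-/-*, and *F11r*, which was within 1.5 times. *Cldn1*, which was also higher, and *Tjp1*, which was within 1.5 times, had no match in this window. The windows of the 2 *Ocln* start sites overlap, and the only E-box of the upstream one is also counted for the other. The GC box GGGCGG occurred in 7 of the 8 genes (8 of 11 start sites) and in 35.7% of all promoters. The STAT motif TTCNNNGAA occurred in *Cldn7* alone (1 of 11 start sites) and in 8.30% of all. The grainyhead-like motif AACCNGTT, which also covers AACCGGTT, was found in none of the 8 and in 2.09% of all. A match describes letters and not a bound site. The 130 bases before the start site are shown for the 2 claudin neighbours and for *Tjp3* (its upstream start site) and *Tjp1*, the ZO pair of which 1 was higher and the other within 1.5 times, with the E-box in capitals.
Cldn3, chr5:135461954-135462083, plus strand: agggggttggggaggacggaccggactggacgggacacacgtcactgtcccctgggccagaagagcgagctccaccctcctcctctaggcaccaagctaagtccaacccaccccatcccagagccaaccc
Cldn4, chr5:135422805-135422934, minus strand: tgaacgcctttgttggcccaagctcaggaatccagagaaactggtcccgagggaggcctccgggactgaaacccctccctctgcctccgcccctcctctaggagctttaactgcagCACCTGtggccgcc
Tjp3, chr10:80754327-80754456, minus strand: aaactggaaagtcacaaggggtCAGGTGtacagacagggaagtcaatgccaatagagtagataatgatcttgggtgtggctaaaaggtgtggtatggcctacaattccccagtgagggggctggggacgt
Tjp1, chr7:72516131-72516260, minus strand: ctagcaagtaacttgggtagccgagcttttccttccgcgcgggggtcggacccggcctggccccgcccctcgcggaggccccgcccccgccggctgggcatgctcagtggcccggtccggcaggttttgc
In these stretches *Cldn4* and *Tjp3* held 1 E-box each and *Cldn3* and *Tjp1* none. The match of *Cldn3* lies after its start site.

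Transcripts of the factors that bind this E-box differed in direction, and all 4 are members of the list of junction regulators that were named after their values were seen. *Zeb1* was lower in *Igfbp7-/-* (104 and 46.8 RPM, log2 ratio -1.15, -1.28 to -1.04) and *Snai1* higher (4.28 and 8.996 RPM, 1.05, 0.66 to 1.49). *Zeb2* (103 and 73.7 RPM) and *Snai2* (35.4 and 26.7 RPM) were within 1.5 times. *Grhl2*, a grainyhead-like activator of claudin genes in epithelia, was within 1.5 times as well (23.7 and 25.6 RPM, 0.12, -0.08 to 0.31), and its relative *Grhl1* was higher (8.56 and 17.6 RPM, 1.03, 0.75 to 1.33). The third relative, *Grhl3*, was below 1 RPM in both libraries (0.757 and 0.228 RPM). The grainyhead-like genes, too, belong to the regulators that were named after their values were seen. The basal and myoepithelial, endothelial and fibroblast markers were 3.15-fold, 3.01-fold and 1.67-fold lower in sum in *Igfbp7-/-*. The part of those cells in the levels of these factors was not tested. Nor was a link between these levels and those of the 9 genes.

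Of 11 other membrane proteins of tight junctions in the files, 7 were higher, 3 lower and 1 within 1.5 times, with a median log2 ratio of 1.15. Over all genes tested 21.4% were higher and 23.0% lower. The MARVEL proteins in the family of occludin were higher too, *Marveld2* (tricellulin, found at the corners of cells) with 20.4 RPM in WT and 61.0 RPM in *Igfbp7-/-* (1.57, 1.40 to 1.76) and *Marveld3* with 8.13 and 22.2 RPM (1.44, 1.17 to 1.74). *Crb3*, an apical polarity protein, was at 6.12 and 19.5 RPM (1.66, 1.35 to 2.002). The 3 that were lower belong to the immunoglobulin-like adhesion molecules, as *F11r* does. *Esam*, an adhesion molecule of endothelial cells, was at 122 and 40.4 RPM (-1.59, -1.71 to -1.46), and *Jam2* and *Jam3*, named after their values were seen, at 15.8 and 6.31 RPM and at 3.93 and 2.37 RPM. *Esam* and *Jam2* are known from endothelial cells, whose 6 markers were lower in sum, and the part of those cells was not tested. In the same class *Cxadr*, the coxsackievirus and adenovirus receptor, was higher (128 and 284 RPM, 1.15, 1.07 to 1.22), and so was *Igsf5* (1.84 and 5.03 RPM). Of the angulins, which recruit tricellulin to the corners, *Lsr* (6.87 and 15.3 RPM) and *Ildr2* (5.83 and 14.1 RPM) were higher and *Ildr1* (39.0 and 43.0 RPM) was the gene within 1.5 times. These 5 were named after their values were seen.

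The plaque and polarity proteins join the strand to actin or set the apical side. Of 29 that reached 1 RPM, 15 were higher, 6 lower and 8 within 1.5 times, with a median of 0.64. The shares over all genes tested were 21.4% higher and 23.0% lower. *Cgn* (cingulin, which links ZO proteins to the cytoskeleton) had the largest ratio of all junction genes that reached 1 RPM, with 538 reads against 4336 (15.7 and 124 RPM), 7.86-fold (log2 ratio 2.97, 2.80 to 3.17). Its relative *Cgnl1* (paracingulin) was at 29.6 and 114 RPM (1.94, 1.80 to 2.09). *Prkci*, the atypical protein kinase C of the PAR polarity complex, was at 74.7 and 253 RPM (1.76, 1.67 to 1.85), and *Llgl2*, a substrate of that kinase, at 6.35 and 20.7 RPM (1.69, 1.39 to 2.03).

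Of 39 regulators of the junction that reached 1 RPM, 17 were higher, 4 lower and 18 within 1.5 times, with a median of 0.48. Among all genes tested 21.4% were higher and 23.0% lower. *F2rl1*, the protease-activated receptor PAR2, was at 10.2 and 50.9 RPM (2.31, 2.09 to 2.56). *Wnk4*, a kinase that phosphorylates claudins, was at 6.99 and 31.5 RPM (2.15, 1.88 to 2.47). *Mylk*, the myosin light chain kinase that opens junctions through actomyosin and is also a smooth muscle and myoepithelial gene, was lower, at 501 and 132 RPM (-1.92, -1.99 to -1.86), and the 7 basal and myoepithelial markers were 3.15-fold lower in sum. The other 3 lower genes, named after their values were seen, were *Zeb1*, *Tspan8* (6.38 and 2.11 RPM) and *Rab13* (2.53 and 1.49 RPM, -0.73, -1.53 to -0.04).

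The membrane proteases of epithelia that act on junctions were looked at after their values were seen. *St14* (matriptase) was at 68.5 RPM in WT and 213 RPM in *Igfbp7-/-* (1.64, 1.54 to 1.73), and its partner *Prss8* (prostasin) at 34.1 and 73.4 RPM (1.11, 0.97 to 1.25). Their inhibitor *Spint1* was at 16.6 and 55.8 RPM (1.75, 1.56 to 1.95), while the inhibitor *Spint2*, at 69.7 and 101 RPM, was within 1.5 times. Both proteases and 1 of their 2 inhibitors were higher, against 17 of the 39 regulators they were picked from and 21.4% of all genes tested.

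The core genes of the adherens junction, the cadherin belt below the tight junction, were mostly within 1.5 times. Of 12 genes, 2 were higher, 1 lower and 9 within, with a median of -0.030. The genes called higher were *Mllt4* and *Pvrl4* (nectin-4), the latter at 1.37 and 5.97 RPM and named after its values were seen. *Mllt4* (afadin, which binds nectins and ZO-1) was at 134 and 543 RPM (2.02, 1.95 to 2.09) and *Cdh3* (P-cadherin, a cadherin of myoepithelial cells) at 141 and 50.9 RPM (-1.47, -1.59 to -1.36). *Cdh1* (E-cadherin) was at 349 and 455 RPM (0.38, 0.33 to 0.43), and *Pvrl2* (nectin-2) at 27.7 and 35.6 RPM (0.36, 0.19 to 0.54). Over the 5 lists together (other claudins, membrane, plaque, regulators and adherens core), 42 of 97 genes were higher and 17 lower, against 21.4% and 23.0% of all genes tested. Relative to the summed luminal markers 15 were higher and 51 lower, against 3.03% and 71.4% of all genes under that scaling.

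**Figure D4:**
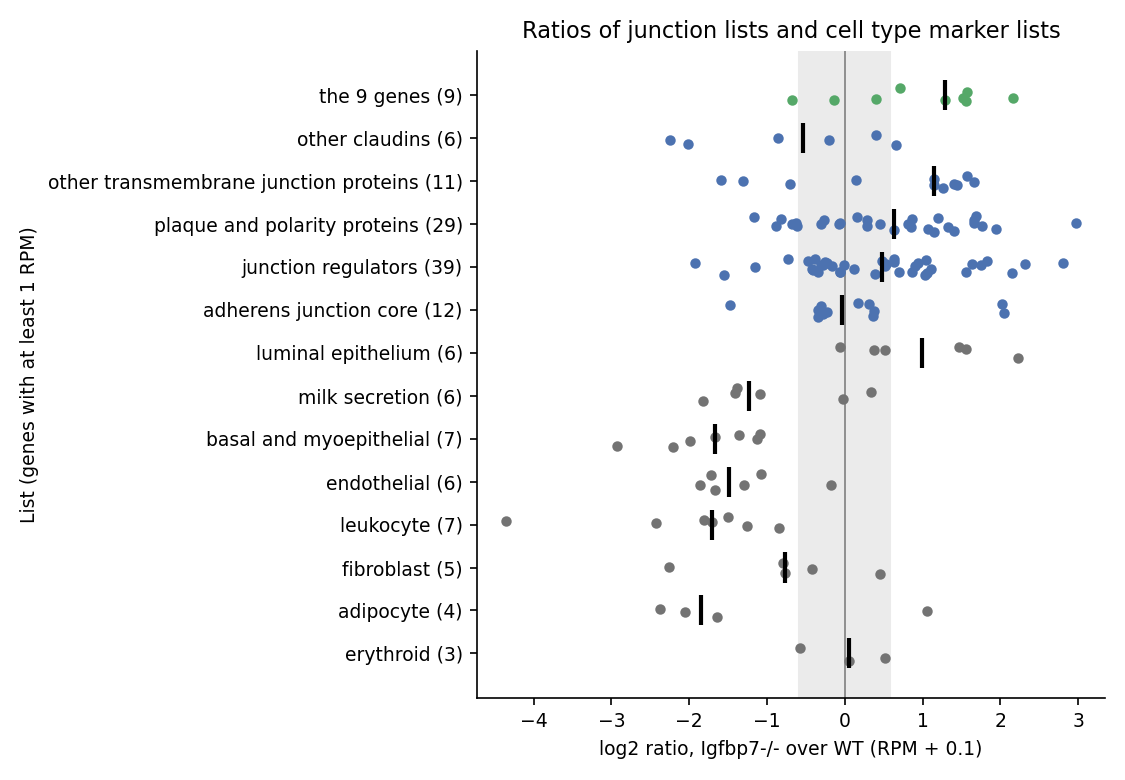
log2 ratio of *Igfbp7-/-* to WT (RPM with 0.1 RPM added) for each gene that reached 1 RPM in either genotype, by list. The 9 genes are green, other junction lists blue and cell type marker lists grey, black bars are medians and the grey band marks ratios within 1.5 times. The 9 genes have a median of 1.29, the luminal markers 0.99 and the basal and myoepithelial markers -1.67.

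After the data were seen, the 9 genes were also set against luminal markers of the same library, of which 3 of 6 were higher. *Krt8* was 2.94-fold, *Krt18* 4.69-fold and *Krt19* 2.77-fold higher in *Igfbp7-/-*, while *Epcam* (1.42-fold), *Cdh1* (1.30-fold) and *Cd24a* (0.957-fold) were within 1.5 times. Relative to the summed RPM of the 6 markers, which was 1.998 times as high in *Igfbp7-/-*, 1 of the 9 genes was higher by at least 1.5 times and 3 were lower. *Cldn3* stayed higher at a log2 ratio of 1.17, *Cldn8* (-1.67), *F11r* (-1.14) and *Tjp1* (-0.60) were lower, and *Cldn7* was at -0.29 in place of 0.70. By the same scaling 3.03% of all genes were higher and 71.4% lower. The ratio differed with the marker. *Cldn3*, *Cldn1* and *Ocln* had a ratio above 1 against 5 of the 6 markers, from 0.961 times against *Krt18* to 4.71 times against *Cd24a* for *Cldn3*, whereas *Cldn8* and *F11r* were below 1 against all 6. *Cldn7* was above 1 against 3 of the 6, from 0.348 times against *Krt18* to 1.70 times against *Cd24a*. *Epcam* and *Cdh1* also belong to the junction lists.

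**Figure D5:**
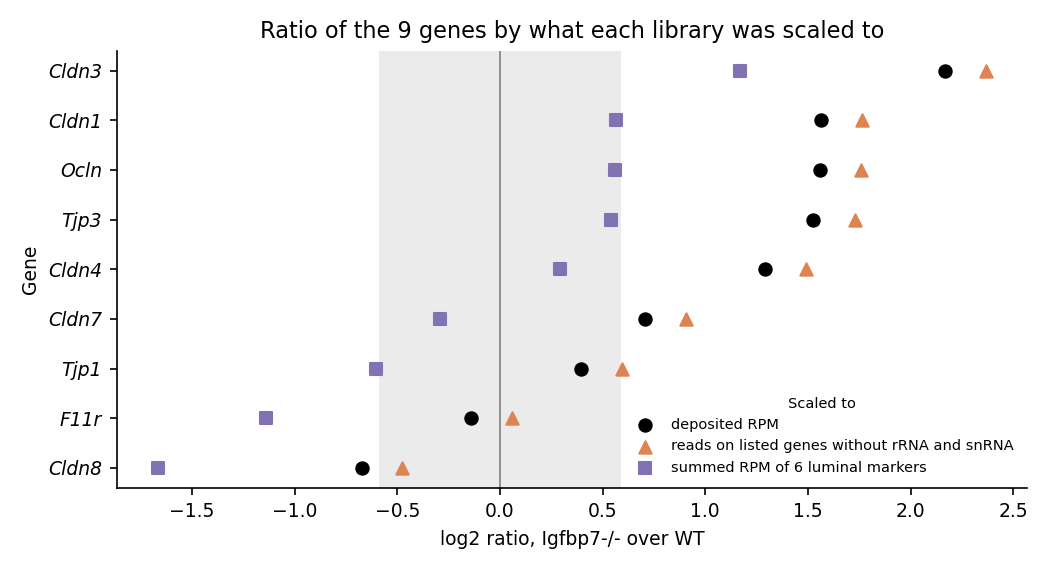
log2 ratio of *Igfbp7-/-* to WT for the 9 genes when each library is scaled to the deposited total (circles), to its reads on listed genes other than rRNA and snRNA genes (triangles) or to the summed RPM of 6 luminal markers (squares). Each scaling shifts all genes by about the same amount, and *Cldn3* is past 1.5 times under all 3 scalings while *Cldn7* is at -0.29 with the summed luminal markers.

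The deposited totals include reads outside the listed genes, and this share was larger in *Igfbp7-/-*. In an alternative added after the data were seen, in which each library was scaled to its reads on listed genes, with ribosomal (rRNA) and small nuclear RNA (snRNA) genes left out, 7 of the 9 genes were higher and none lower by 1.5 times, with *Tjp1* at a log2 ratio of 0.59 and *Cldn8* at -0.48. Under that scaling 31.3% of all genes were higher and 18.4% lower, against 21.4% and 23.0% with the deposited totals. It moved the median of all genes by 0.20, and the share of higher genes among those called went from 48.2% to 63.0%.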

How the data were processed

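Poly(A) RNA of lineage-depleted MECs was sequenced as paired ends on a SOLiD instrument, 1 library per genotype. The authors mapped the reads with a Bowtie pipeline in GeneSifter, with ribosomal, mitochondrial and small nuclear RNA filtered out, although ribosomal genes still held 2.95% of reads in WT and 3.15% in *Igfbp7-/-*. The submitters' processing notes name Bowtie 0.12.3, SAMtools 0.1.15 and mm9, whereas the methods name a human build. The annotation used and the handling of reads mapping to several places are not given in the sources used here. The deposited read count per gene is not normalized, and empty cells were read as 0. The deposited RPM is the count per 1000000 of a fixed library total, and the deposited RPKM is the RPM per kilobase of the gene length the authors used. RPM thus moves with the share of reads outside the listed genes and with a few very abundant milk genes. The 50 rows without a symbol (0.0495% and 0.0670% of reads) were left out.

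Ratios of *Igfbp7-/-* to WT used RPM with a pseudocount of 0.1 RPM, a minimum of 1 RPM in WT or *Igfbp7-/-* and a fold of 1.5 to call a gene. The pseudocount understates the ratio of low genes. Intervals are 95% Clopper-Pearson intervals on read pairs, since 75.8% and 74.1% of counts from 1 to 20 were even, and they cover counting error only. With 1 library per genotype no count model such as edgeR was tested, and edgeR 4.0.16 and DESeq2 1.42.0 in R 4.3.3 gave scaling factors only. Python 3.11.15, pandas 2.3.3 and scipy 1.17.1 were used, and the calculation was tested on simulated counts. The members, lists and markers were chosen with earlier results of these data known. All 9 members are given in full, and from each other junction list the 4 genes with at least 10 RPM and the largest ratios, with every claudin of at least 1 RPM. A gene named outside this rule is said to be, apart from *Igfbp7*, the cell type markers and genes named by their position. Some genes, 1 of them named by this rule, are not reported here. No protein sequences were used here. Gene positions are from GENCODE M1 (NCBIM37), and promoters are RefSeq sequences matched to that build.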

Additional observations from a re-analysis of the deposited data

How the results depend on the processing

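With 1 library per genotype no library could be left out, and the values rest on these 2 libraries. No paired analysis was possible because each genotype had 1 library. The 6 higher genes and 1 lower gene of the 9 were the same counts with pseudocounts of 1 and 0.01 RPM, no minimum, a minimum of 10 RPM, TMM, DESeq2 size factors, RPKM, centring on the median and totals without the 20 most abundant genes. With a threshold of 2 times, 5 were higher and 0 lower, against 9.64% and 13.8% of all genes. The other scalings were added after the data were seen. With listed genes other than rRNA and snRNA, 7 were higher and 0 lower, against 31.3% and 18.4% of all genes, and *F11r* moved from -0.14 to 0.059. With the 6 luminal markers, 1 was higher, 3 were lower, *Cldn7* was at -0.29, the median of all genes moved by -1.02 and 4.07% of all called genes were higher. Of the other junction lists, 42 genes were higher and 17 lower, and the luminal scaling gave 15 and 51, a minimum of 10 RPM 11 lower (fewer genes tested) and a threshold of 2 times 9 lower. Of the 10 counts by list and direction, 2 moved by over 1.5 times with each other minimum, 3 with the threshold of 2 times, 2 with listed genes and 7 with the luminal markers. Over all genes, 3006 were higher and 3231 lower, against 4741 and 5279 without a minimum, 1696 and 1672 with 10 RPM, 1352 and 1936 at 2 times, 4582 and 2693 with listed genes and 438 and 10312 with the luminal markers. By RPM in place of RPKM *Cldn4* took 51.6% of claudin signal in WT and 57.4% in *Igfbp7-/-*, a difference made by gene length.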
